A study of Mus musculus with 7 samples.

Results

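The let-7 guide arms that begin with U, together with miR-98, are 8 of the 950 mature miRNAs counted in Ago2 immunoprecipitates from mouse embryonic stem cells. They were taken by name: mmu-let-7a-5p, mmu-let-7b-5p, mmu-let-7c-5p, mmu-let-7e-5p, mmu-let-7f-5p, mmu-let-7g-5p, mmu-let-7i-5p and mmu-miR-98-5p (the species prefix is dropped from here on), in 11 rows of the deposited table, since 3 of them are encoded at more than 1 locus. Flag-tagged Ago2 was put into stem cells without Argonautes of their own, pulled down with an antibody to Flag, and the small RNAs it held were sequenced. There were 7 libraries, 1 each for wild-type Ago2 (WT), the point mutants K566A and Q548A, the double mutant R792A_C793A, the mutants labelled GKT_GKGT and PGKTP_AAAAA, and a control labelled empty. All 7 share the Argonaute-null background and growth in serum with leukemia inhibitory factor, and the labels do not say how the Ago2 proteins were expressed or whether a line is 1 clone. By its title, the series asks whether Argonaute itself sets which strand of a small RNA duplex is kept.

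let-7 is a family of miRNAs that hold back growth and stem cell programmes, with Lin28, Hmga2, Ras and Myc transcripts among its known targets. In embryonic stem cells the Lin28 proteins bind the loop of let-7 precursors and block their maturation, so mature let-7 is scarce there and rises on differentiation. Ago2 takes the 5p arm as the guide and holds its first base in a pocket of the MID domain, which faces that base with a loop. Residues K566 and Q548 belong to the MID domain and R792 and C793 to PIWI, while GKT_GKGT and PGKTP_AAAAA read as changes to the MID loop.

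The 8 guides are shown because every result below sets them against each other, and they differ only outside the seed. Capitals mark the seed, bases 2 to 8, and all sequences are from RefSeq (GRCm38.p6 table), where 8 of 8 matched by name. The arm of let-7d, which shares the seed but begins with A, is the last line and is not one of the 8.
let-7a-5p: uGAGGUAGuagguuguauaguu
let-7b-5p: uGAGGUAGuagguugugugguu
let-7c-5p: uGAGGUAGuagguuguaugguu
let-7e-5p: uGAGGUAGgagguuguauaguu
let-7f-5p: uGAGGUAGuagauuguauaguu
let-7g-5p: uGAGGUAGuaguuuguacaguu
let-7i-5p: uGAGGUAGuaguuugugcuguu
miR-98-5p: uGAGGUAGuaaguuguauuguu
let-7d-5p: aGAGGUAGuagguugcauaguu

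All 8 guides are 22 bases long and share the seed GAGGUAG. Of the 751 miRNAs in the table with a RefSeq sequence, 9 carry this seed, namely these 8 and let-7d-5p. Relative to let-7a-5p, with positions counted from 1 at the 5′ end and the base of let-7a-5p written first, let-7c-5p differs by A19G, let-7e-5p by U9G and let-7f-5p by G12A. let-7b-5p differs by A17G and A19G, let-7g-5p by G12U and U18C, and miR-98-5p by G11A and A19U. let-7i-5p is the farthest, with 4 differences (G12U, A17G, U18C and A19U). let-7d-5p differs by U1A and U16C. Since 3 members lie 1 base from let-7a-5p, and how many mismatches the counting allowed is not given, reads could have been counted under a close relative, and the split between members is uncertain to that extent.

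The libraries held between 14914048 (K566A) and 94842507 (WT) counts in the 6 Ago2 immunoprecipitates and 33461 in empty, counting each miRNA once. Each group has a single library, so differences have no replicate check and carry no p-value. Every comparison is of 2 libraries, and every 95% interval covers counting error only (PCR reads without molecular identifiers are not independent molecules). Defining stem cell miRNAs, the miR-290 and miR-302 clusters, were present in all 7 libraries, with 11 of 11 markers detected and a summed level of 593329 to 796310 CPM (counts per 1000000 counts of the library).

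In WT the 8 guides together held 41631 counts, or 439 CPM, which is 0.0439% of the library. let-7a-5p was the highest at 95.5 CPM and ranked 128 among all miRNAs. Its 2 loci lie on chromosome 13 (48633608 to 48633629, mm9), in an exon of the long noncoding RNA 6720427I07Rik, and on chromosome 9 (41344815 to 41344836), in an intron of the noncoding transcripts 3110039I08Rik and Gm49317. let-7g-5p followed at 85.0 CPM, from chromosome 9 (106081177 to 106081198) in an intron of Wdr82. let-7f-5p was at 77.5 CPM, from chromosome 13 (48633258 to 48633279), in the same noncoding RNA as let-7a-1, and from X (148346896 to 148346917) in an intron of Huwe1, which encodes a ubiquitin ligase. These 3 were the most abundant, and each neighbour in the order differed beyond its counting error.

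Next in WT were let-7e-5p at 69.2 CPM (chromosome 17, 17967330 to 17967351, in an intron of Spaca6) and let-7i-5p at 56.7 CPM (chromosome 10, 122422754 to 122422775, in an exon of D630033A02Rik). let-7c-5p was at 46.5 CPM and comes from chromosome 15 (85537046 to 85537067), in an exon of the noncoding RNA Lncppara, and from chromosome 16 (77599917 to 77599938), in an intron of Mir99ahg. The lowest were let-7b-5p at 4.38 CPM (chromosome 15, 85537755 to 85537776, in Lncppara beside let-7c-2) and miR-98-5p at 4.09 CPM (X, 148347772 to 148347793, in Huwe1 beside let-7f-2). The last pair did not differ beyond counting error, with a ratio of 1.07 (95% interval 0.93 to 1.23). Both loci of let-7a-5p, let-7c-5p and let-7f-5p carried nearly the same counts, so the deposited values do not tell which hairpin supplied them. All positions are in the deposited mm9 coordinates, and GENCODE M21 gave the host gene of each hairpin by name.

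The level split into 6 abundant guides and 2 scarce ones in each of the 6 Ago2 libraries, as the plot of levels by library shows. The ratio of the highest to the lowest member ran from 16.0 in R792A_C793A to 38.2 in GKT_GKGT. The leading member was let-7a-5p in WT, R792A_C793A and PGKTP_AAAAA, let-7f-5p in K566A, let-7g-5p in Q548A and let-7e-5p in GKT_GKGT. The lead over the second member was within counting error in GKT_GKGT (ratio 1.03, 0.99 to 1.08), PGKTP_AAAAA (1.05, 0.98 to 1.12), Q548A (1.003, 0.97 to 1.03) and K566A (1.01, 0.98 to 1.04). In Q548A the third, let-7f-5p, was also within counting error of the second (1.01, 0.98 to 1.04), and in PGKTP_AAAAA so was let-7c-5p (1.06, 0.99 to 1.13).

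**Figure D1:**
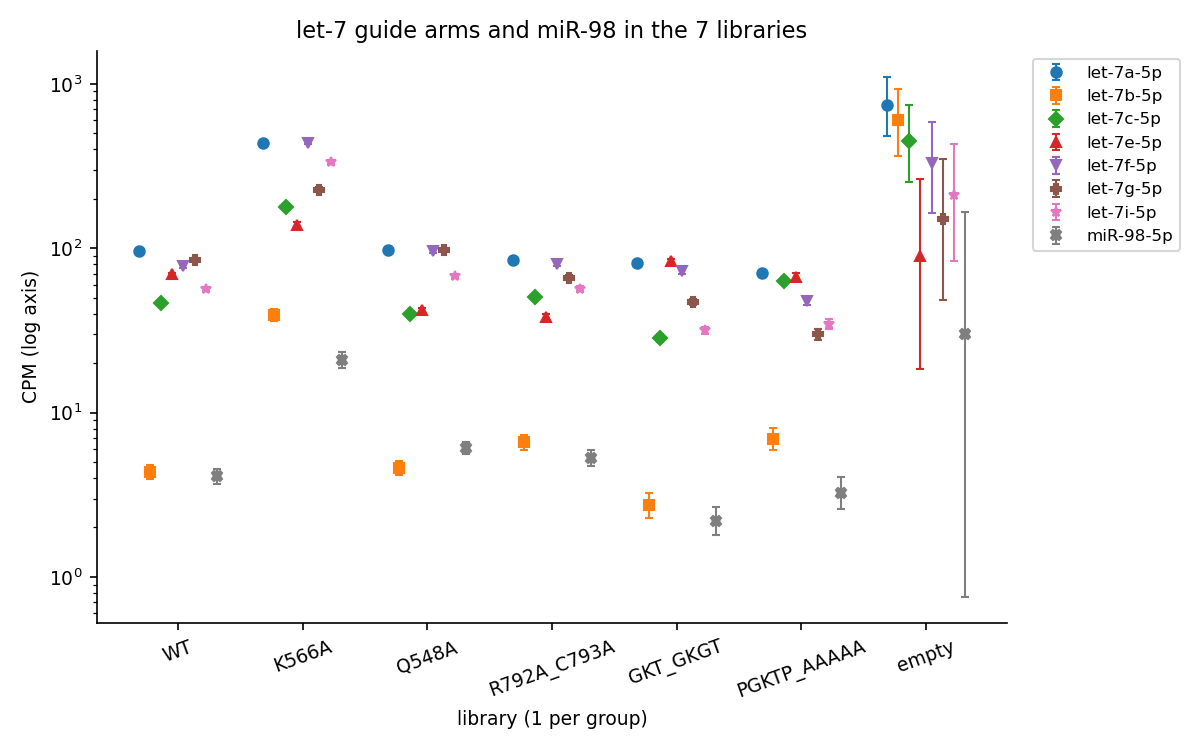
CPM of each of the 8 guides (log axis) in the 7 libraries, 1 library a group, with bars for the exact Poisson 95% interval. In each Ago2 library let-7b-5p and miR-98-5p lie below the other 6; all 8 are higher in K566A than in WT, and in empty let-7b-5p sits among the abundant members at 598 CPM.

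In K566A the guides took a larger part of the library. Their summed level was 1806 CPM (95% interval 1785 to 1828), against 439 CPM in WT (435 to 443), which is 4.12 times higher. A ratio of 2 libraries was called where all of its exact conditional 95% interval exceeded 2 or lay below 0.5. By this rule 7 of the 8 guides were higher in K566A, and the eighth, let-7e-5p, was at 1.99 times its WT level (1.89 to 2.09). The level filter, an average of 10 CPM or more across the Ago2 libraries, was passed by 337 miRNAs. Of these, 47.5% were called higher in K566A and 19.6% lower, so a call upward was common there. No guide was called lower. let-7b-5p reached that average only through K566A, and miR-98-5p did not reach it (6.98 CPM).

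let-7b-5p had the greatest ratio in K566A, at 39.4 CPM against 4.38 in WT, 9.01 times higher (7.93 to 10.2). let-7i-5p was at 332 CPM against 56.7 (5.86 times, 5.64 to 6.10), and let-7f-5p at 438 against 77.5 (5.65 times, 5.46 to 5.84). miR-98-5p was at 20.99 CPM against 4.09, a ratio of 5.13 (4.41 to 5.97). For each of these 4 the measured ratio was above 5. let-7a-5p was at 434 CPM against 95.5 (4.54 times, 4.40 to 4.69), and let-7c-5p at 177 against 46.5 (3.81 times). let-7g-5p rose least among those called, from 85.0 to 227 CPM (2.67 times, 2.57 to 2.78). let-7e-5p, at 138 CPM against 69.2, stood lowest of the 8, and with both miR-292 arms left out of the library size it lay below WT.

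On the log2 scale the median ratio of the 8 in K566A was 2.27, beside 0.91 over the 337 miRNAs and 1.25 over 118 U-first miRNAs outside the family. All 8 lay above the median of the 337. They include let-7b-5p (3.17), past the level filter only through K566A, and miR-98-5p (2.36), not past it. The other guides ran from 0.99 (let-7e-5p) to 2.55 (let-7i-5p). The upper quartile of the 337 was 2.21, so the members' median fell at the upper edge of the common range. K566A also held less of miR-292, the hairpin that dominates this cell type, at 28.7% of counts against 67.3% in WT. With CPM taken over the remaining miRNAs, the 8 guides stood at 2535 CPM in K566A and 1341 CPM in WT. With both miR-292 arms left out of the library size, 4 guides were called higher (let-7a-5p, let-7b-5p, let-7f-5p and let-7i-5p), against 25.2% of the 337. The median-of-ratios scaling gave 5, the same 4 and let-7c-5p, against 32.9%.

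Most miRNAs known from other cell types that passed the level filter were called higher in K566A, as were 47.5% of the 337. Fibroblast markers, 10 of 10 in the table, summed to 9187 CPM in K566A and to between 1341 and 2909 CPM in the other 5 Ago2 libraries. Of their 7 members past the level filter 6 rose, with miR-143-3p at 3968 CPM against 995 in WT and miR-21-5p at 618 against 65.9; miR-214-3p was at 0 in K566A. Neural markers (6 of 6) summed to 25019 CPM in K566A and to between 3737 and 7630 CPM in the other 5, with 3 of 3 past the filter higher and miR-137-3p at 0. Nearly all of this sum was miR-128-3p, at 24578 CPM in K566A and 3882 CPM in WT, while miR-9-5p was at 360.0 against 71.5 CPM and miR-124-3p at 79.5 against 13.1 CPM. Endothelial or blood markers (5 of 6 in the table, miR-223-3p at 0) summed to 2514 CPM, against 530 to 986 CPM in the other 5, with 3 of 4 higher. The exception, miR-126-5p, was at 7.91 CPM in K566A against 15.8 in WT. Muscle markers (2 of 3 in the table) summed to 2.08 CPM or less in the Ago2 libraries. Of the 11 stem cell markers 6 rose and 2 fell in K566A, and none was at 0. The part of other cells, of the lower depth of K566A or of its miR-292 share in the let-7 result was not tested. In small RNA pulled down from a whole culture, more cells of a type and more of its miRNAs per cell cannot be told apart.

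Set directly against the other mutants, without the WT library, K566A again held more of the guides. All 8 were called higher than in Q548A, beside 47.2% of the 337 miRNAs, and all 8 than in R792A_C793A, beside 38.3%. Against GKT_GKGT 7 of 8 were higher (50.1% of the 337), and against PGKTP_AAAAA also 7 of 8 (58.5%). No guide was lower in these 4, where 19.6%, 21.4%, 22.6% and 13.4% of the 337 were. The exception in both was let-7e-5p. These 4 comparisons share the K566A library and used CPM alone. Median-of-ratios moved log2 ratios to WT by -0.84 in K566A but by 0.62 in PGKTP_AAAAA and 0.18 in GKT_GKGT. Calls between mutants thus depend on the library size, and they were not repeated with other scalings. Of the guides counted, let-7b-5p passed the level filter only through K566A, and miR-98-5p is not among the 337.

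**Figure D2:**
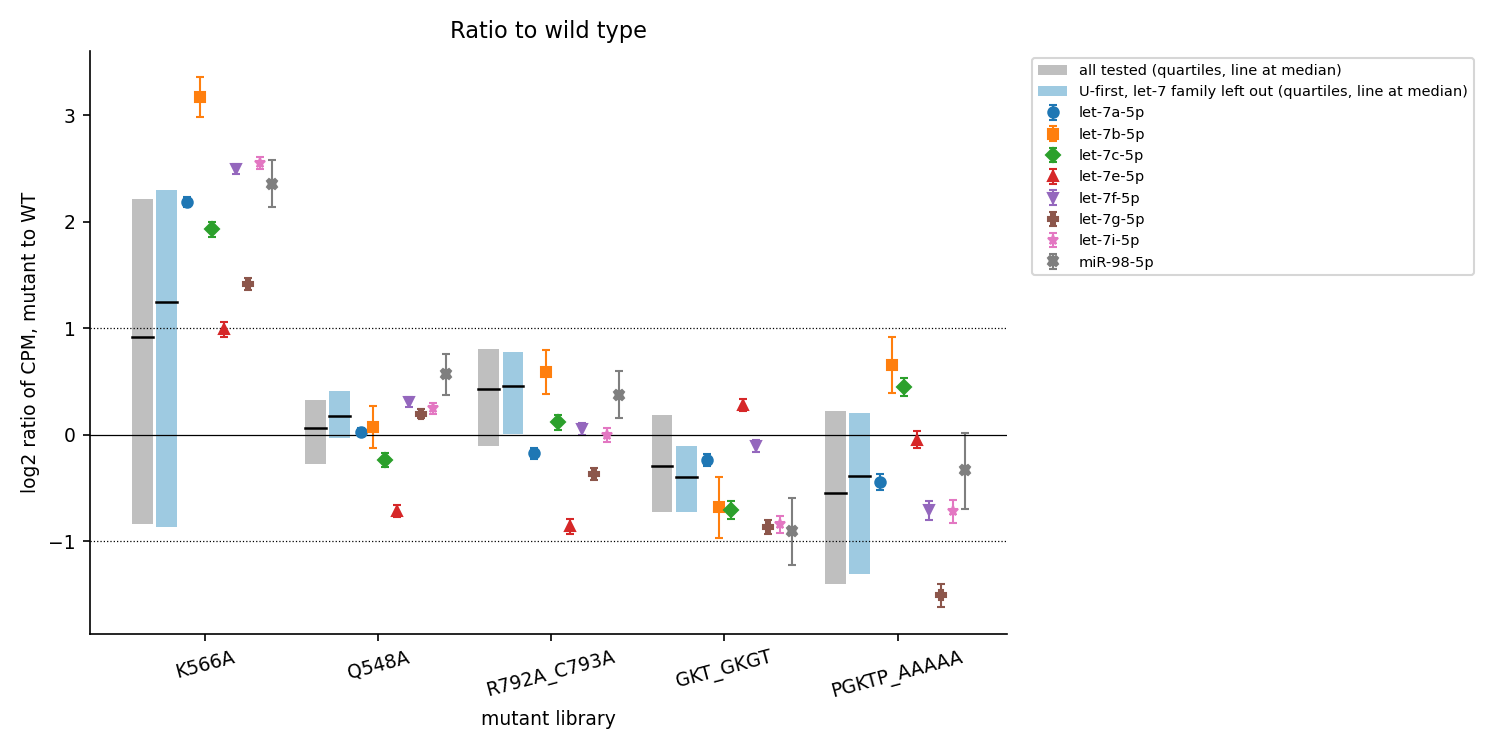
log2 ratio of CPM in each mutant to WT for the 8 guides, with bars for the exact conditional 95% interval; grey and blue bars span the quartiles over the 337 miRNAs past the level filter and over 118 U-first miRNAs outside the let-7 family, with a line at the median, and dotted lines mark 2-fold. In K566A all 8 points lie above the grey median of 0.91, and in PGKTP_AAAAA let-7g-5p is the one guide below the lower dotted line.

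In Q548A the guides kept close to WT as a group, and none passed the 2-fold rule, beside 1.78% of the 337 called higher and 4.45% called lower. Their summed level was 451 CPM against 439. let-7e-5p stood lowest, at 42.1 CPM against 69.2 in WT (log2 ratio -0.72, -0.78 to -0.66). let-7c-5p was also below WT, at 39.5 against 46.5 CPM (-0.23, -0.30 to -0.17). let-7f-5p (96.1 CPM, 0.31), let-7i-5p (67.3 CPM, 0.25), let-7g-5p (97.6 CPM, 0.20) and miR-98-5p (6.06 CPM, 0.57) lay above WT by more than counting error. For let-7a-5p (97.3 CPM, 0.03, -0.01 to 0.07) and let-7b-5p (4.60 CPM, 0.07, -0.12 to 0.27) the interval included 0.

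In R792A_C793A no guide passed the rule either, beside 15.7% of the 337 called higher and 6.82% lower. The summed level was 389 CPM. The median log2 ratio of the 8 was 0.03, while that of the 337 was 0.43 and that of other U-first miRNAs 0.46, and 1 of the 8, let-7b-5p, lay above the median of the 337. let-7e-5p was again the lowest, at 38.3 CPM against 69.2 (-0.86, -0.93 to -0.79). With each of 3 other library sizes it was called lower, beside 12.8% of the 337 with median-of-ratios, 12.8% with TMM and 10.7% with the total without miR-292, and these scalings also turned the sign of the members' median. let-7g-5p (66.1 CPM, -0.36) and let-7a-5p (84.8 CPM, -0.17) were below WT by more than counting error. let-7b-5p stood highest, at 6.58 against 4.38 CPM (0.59, 0.38 to 0.79), with miR-98-5p at 5.32 CPM (0.38) and let-7c-5p at 50.4 CPM (0.12). let-7f-5p (80.6 CPM, 0.06) and let-7i-5p (56.6 CPM, -0.002, interval -0.07 to 0.06) stayed within 0.1 of WT on this scale.

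In GKT_GKGT, a loop mutant by its label, 7 of the 8 guides lay below WT and let-7e-5p above it, none of them past 2-fold (11% of the 337 were called higher and 11.9% lower). The summed level was 349 CPM. let-7e-5p was at 83.9 CPM against 69.2 (log2 ratio 0.28, 0.22 to 0.33) and was the most abundant guide of this library. let-7f-5p (72.3 CPM, -0.10) and let-7a-5p (81.2 CPM, -0.23) were near WT, and with median-of-ratios let-7f-5p lay above it (0.080). The remaining 5 lay together lower: let-7b-5p (2.74 CPM, -0.68), let-7c-5p (28.5 CPM, -0.71), let-7i-5p (31.6 CPM, -0.84), let-7g-5p (46.8 CPM, -0.86) and miR-98-5p (2.20 CPM, -0.90). The median of the 8 was -0.69, beside -0.29 over the 337 and -0.39 over other U-first miRNAs, whose lower quartile was -0.72. Of the 11 stem cell markers, 1 rose and 5 fell in this library, and their part in these values was not tested.

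In PGKTP_AAAAA, the loop mutant whose label names alanines, the guides spread apart. let-7g-5p fell from 85.0 to 29.9 CPM (log2 ratio -1.51, -1.62 to -1.40), and was the 1 guide called lower, beside 33.5% of the 337, with 0 guides higher beside 7.12%; with median-of-ratios or TMM scaling it was not called. let-7b-5p (6.90 CPM, 0.66, interval 0.39 to 0.92) and let-7c-5p (63.4 CPM, 0.45, interval 0.36 to 0.53) lay above WT. Both come from the same noncoding RNA on chromosome 15, and let-7c-5p also from chromosome 16. By CPM, let-7e-5p was level with WT (67.1 CPM, -0.05, interval -0.12 to 0.03). let-7a-5p (70.5 CPM, -0.44), let-7f-5p (47.5 CPM, -0.71), let-7i-5p (34.5 CPM, -0.72) and miR-98-5p (3.25 CPM, -0.33) were below it, the last with an interval that included 0. The median of the 8 was -0.39, close to the -0.38 of other U-first miRNAs and above the -0.55 of the 337. It turned to 0.24 with median-of-ratios and 0.042 with TMM. With median-of-ratios let-7a-5p was at 0.19, miR-98-5p at 0.29 and let-7e-5p at 0.58. On the same scaling let-7f-5p was at -0.08 and let-7i-5p at -0.09, so these positions against WT depend on the scaling. Against each other, the loop mutants differed past 2-fold in let-7b-5p and let-7c-5p, both lower in GKT_GKGT (5.93% of the 337 were, and 25.5% were higher). Q548A exceeded GKT_GKGT in let-7i-5p and miR-98-5p (18.1% of the 337 higher, 14.8% lower) and PGKTP_AAAAA in let-7g-5p (34.1% higher, 9.79% lower). R792A_C793A exceeded PGKTP_AAAAA in let-7g-5p (43.3% higher, 5.93% lower) and lay below GKT_GKGT in let-7e-5p (29.7% higher, 11.9% lower). Between Q548A and R792A_C793A no guide was called (5.34% higher, 14.2% lower). These calls between mutants used CPM and were not repeated with other scalings. Median-of-ratios moved log2 ratios to WT by 0.62 in PGKTP_AAAAA but by -0.36 in R792A_C793A, so they depend on the scaling too. Of the guides called here, let-7b-5p passed the level filter only through K566A, and miR-98-5p is not among the 337.

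Ratios between guides of 1 library do not depend on its size, and they show how the make-up of the family differed between the libraries. With 1 library a group, the mutation, the clone and the library cannot be told apart. The first name of the list, let-7a-5p, served as the reference. Its share in the summed counts of the 8 stayed between 21.6% (Q548A) and 24.0% (K566A) in the 6 Ago2 libraries. The share of let-7e-5p ranged the widest: it was 15.8% in WT, 24.0% in GKT_GKGT, 20.8% in PGKTP_AAAAA, 9.84% in R792A_C793A, 9.34% in Q548A and 7.62% in K566A. It was thus below WT in the MID pocket and PIWI mutants and above WT in the loop mutants. let-7g-5p held 21.7% in Q548A, 19.4% in WT, 17.0% in R792A_C793A, 13.4% in GKT_GKGT, 12.6% in K566A and 9.27% in PGKTP_AAAAA. let-7c-5p held 10.6% in WT and 19.6% in PGKTP_AAAAA, and between 8.17% and 13.0% in the others.

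**Figure D3:**
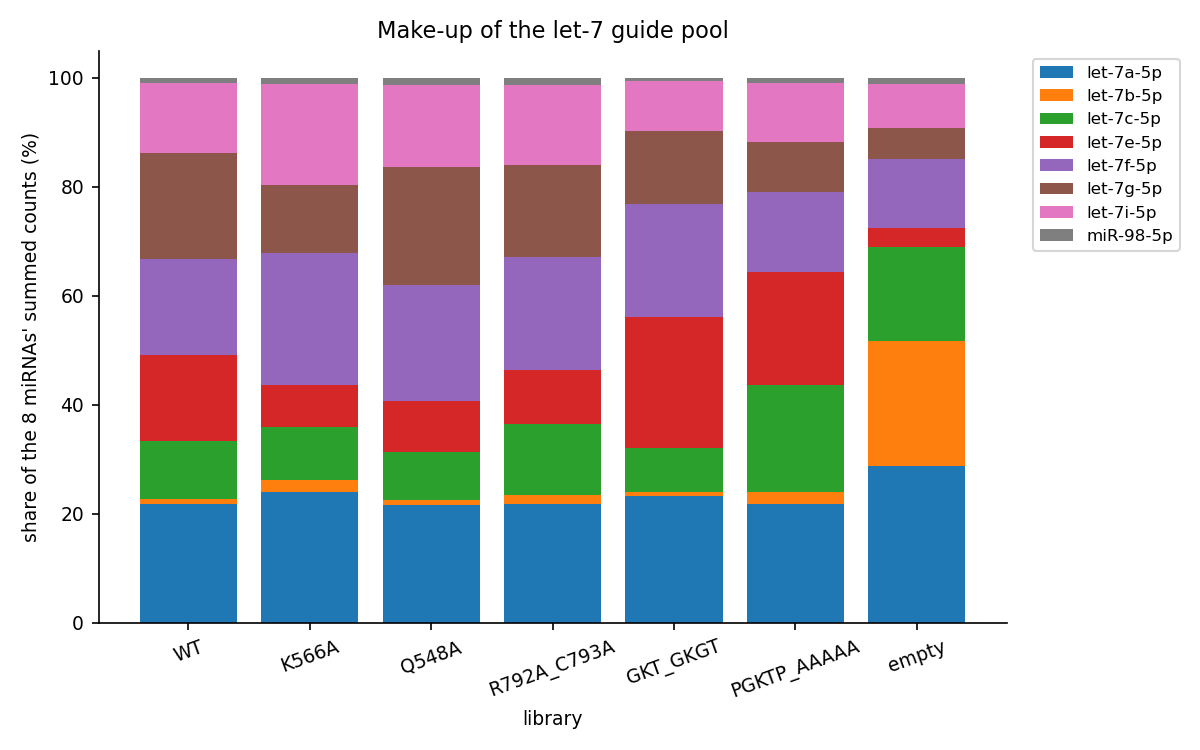
Share of each guide in the summed counts of the 8 guides (%) in each library, stacked to 100%. The let-7e-5p band is 15.8% in WT, 7.62% in K566A and 24.0% in GKT_GKGT, the let-7c-5p band widens to 19.6% in PGKTP_AAAAA, and let-7b-5p takes 23.0% of 87 counts in empty.

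let-7e-5p, which differs from let-7a-5p by 1 base just past the seed, changed against let-7a-5p by -1.19 on the log2 scale in K566A (Woolf 95% interval -1.28 to -1.11), by -0.75 in Q548A (-0.82 to -0.67) and by -0.68 in R792A_C793A (-0.77 to -0.60). In the loop mutants it changed by 0.51 in GKT_GKGT (0.43 to 0.59) and 0.39 in PGKTP_AAAAA (0.29 to 0.50). The direction thus differed between these 3 and these 2 libraries, and all 5 values share the WT library. let-7c-5p, which differs by 1 base near the 3′ end, changed by 0.89 in PGKTP_AAAAA (0.78 to 0.998) and by -0.47 in GKT_GKGT (-0.57 to -0.37). let-7f-5p, with 1 base changed in the middle, stayed nearest to let-7a-5p, between -0.27 (PGKTP_AAAAA) and 0.31 (K566A).

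Among the guides with 2 or more differences, let-7b-5p gained on let-7a-5p in K566A (0.99, 0.80 to 1.18), R792A_C793A (0.76, 0.55 to 0.97) and PGKTP_AAAAA (1.10, 0.83 to 1.36), and lost to it in GKT_GKGT (-0.44, -0.73 to -0.16). let-7g-5p lost in PGKTP_AAAAA (-1.07, -1.20 to -0.94), K566A (-0.76), GKT_GKGT (-0.63, -0.71 to -0.54) and R792A_C793A (-0.19, -0.27 to -0.12), and gained in Q548A (0.17, 0.11 to 0.23). let-7i-5p, which shares G12U and U18C with it, lost in GKT_GKGT (-0.61) and PGKTP_AAAAA (-0.28) and gained in K566A (0.37), Q548A (0.22) and R792A_C793A (0.17). The pair let-7g-5p and let-7i-5p kept its ratio within counting error in Q548A (-0.05, -0.12 to 0.02) and GKT_GKGT (-0.02, -0.13 to 0.08), and changed in K566A (-1.13, -1.21 to -1.05), PGKTP_AAAAA (-0.79, -0.94 to -0.64) and R792A_C793A (-0.36, -0.45 to -0.28). miR-98-5p gained in Q548A (0.54, 0.35 to 0.73) and R792A_C793A (0.55, 0.33 to 0.77) and lost in GKT_GKGT (-0.66, -0.97 to -0.35). Over all 28 pairs of guides, the ratio changed by more than 2-fold, interval included, in 9 pairs in K566A, 7 in PGKTP_AAAAA, 2 each in GKT_GKGT and R792A_C793A, and 1 in Q548A. The pairs share guides: each of the 9 in K566A holds let-7b-5p, let-7e-5p or let-7g-5p. Pairs of miRNAs outside the family were not counted. Of the 337 single miRNAs, 47.5% were called higher and 19.6% lower in K566A, and 7.12% and 33.5% in PGKTP_AAAAA. The largest changes in K566A (2.18) and PGKTP_AAAAA (2.16) were between let-7b-5p and let-7e-5p and between let-7b-5p and let-7g-5p.

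**Figure D4:**
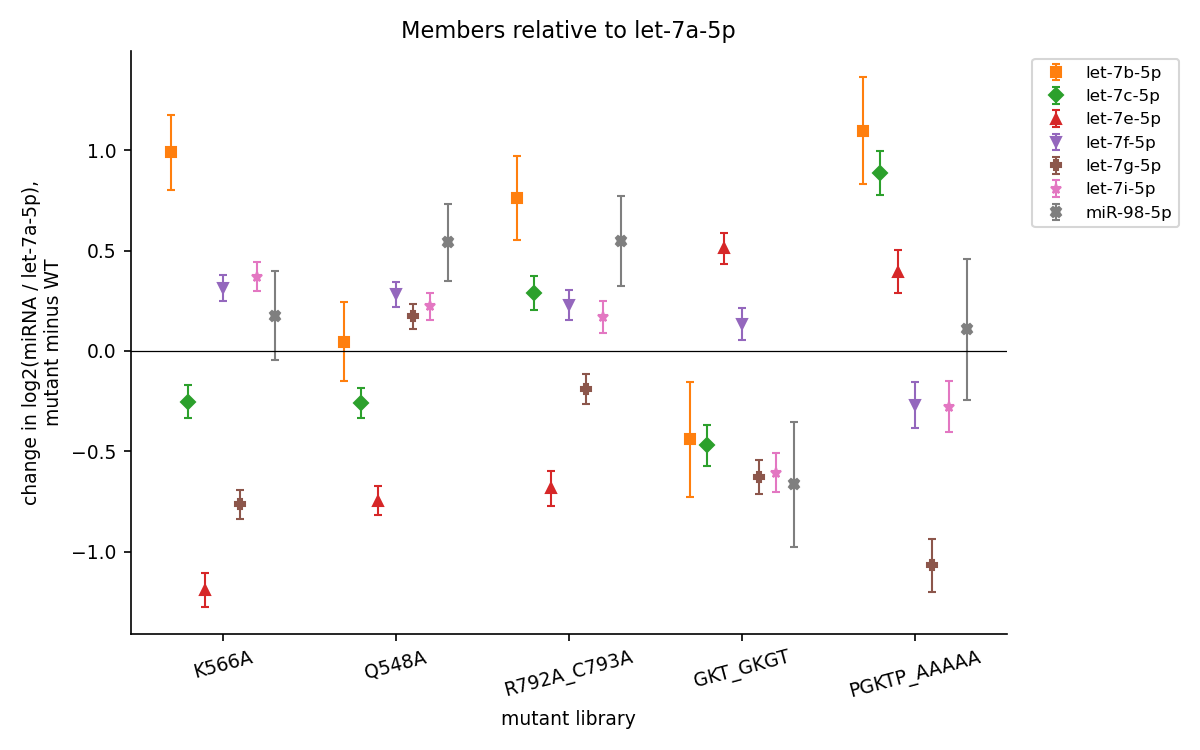
Change in log2(guide / let-7a-5p), mutant minus WT, for the other 7 guides in the 5 mutants, with Woolf 95% intervals; library size cancels. let-7e-5p lies below 0 in K566A, Q548A and R792A_C793A (-1.19, -0.75 and -0.68) and above 0 in GKT_GKGT and PGKTP_AAAAA (0.51 and 0.39).

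Genomic neighbours of the guides did not all share their values. let-7e-5p lies beside miR-99b and miR-125a on chromosome 17; miR-99b-5p fell from 14866 CPM in WT to 3780 CPM in K566A (log2 ratio -1.98), and miR-125a-5p was at 1211 CPM against 2212 (-0.87), while let-7e-5p was at 0.99. In GKT_GKGT these neighbours were at 0.12 and -0.55 and let-7e-5p at 0.28. Near let-7c-1 on chromosome 16, miR-99a-5p was at 2.59 CPM in WT and 17.4 CPM in K566A (2.74), and near let-7a-2 on chromosome 9, miR-100-5p was at 5.98 and 11.9 CPM (0.997). miR-125b-5p, encoded farther along both of these chromosomes, rose from 33.3 to 114 CPM in K566A (1.77). Of the 3 partners past the level filter 1 rose and 1 fell in K566A, where 47.5% of the 337 were called higher and 19.6% lower. None was called in the other 4 mutants, where 1.78% to 15.7% of the 337 were called higher and 4.45% to 33.5% lower.

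let-7d-5p, the A-first arm with the same seed, was at 92.1 CPM in WT, 26.5 in GKT_GKGT, 35.2 in PGKTP_AAAAA, 69.9 in R792A_C793A, 115 in Q548A and 287 in K566A. Against let-7a-5p it changed by -1.56 in GKT_GKGT (-1.66 to -1.46), beyond each of the 7 U-first guides (-0.66 to 0.51), and by -0.95 in PGKTP_AAAAA (-1.07 to -0.82), within their range (-1.07 to 1.10). Where 1 hairpin pairs a guide with 1 passenger arm, the 5p arm held at least 95.9% of the let-7e, let-7g and let-7i counts in WT, 94.6% for miR-98 and 87.7% for let-7b. The lowest value in the Ago2 libraries was 57.4% for let-7b in GKT_GKGT (exact 95% interval 50.8 to 63.8, 237 counts). For let-7e it was 81.5% in K566A, 87.2% in GKT_GKGT and 89.5% in R792A_C793A, but 97.5% in Q548A and 98.2% in PGKTP_AAAAA. The 11 arms of the family named 3p summed to 132 CPM in WT, 328 CPM in GKT_GKGT and 483 CPM in K566A, and 1 of 11, let-7d-3p, passed the level filter. Most of each sum was let-7d-3p, at 124 CPM in WT, 300 in GKT_GKGT and 421 in K566A. In these 3 libraries it was above let-7d-5p.

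Other first bases give the setting for these values. Past the filter and outside the family, 62 of 118 U-first miRNAs rose and 28 fell in K566A, against 24 and 14 of 71 A-first, 25 and 11 of 52 C-first, and 5 and 9 of 27 G-first miRNAs. In GKT_GKGT 3 U-first miRNAs rose and 11 fell, with 0 and 20 for A, 24 and 0 for C, and 4 and 1 for G. Over the 337, 47.5% rose and 19.6% fell in K566A, and 11% rose and 11.9% fell in GKT_GKGT. miRNAs without a RefSeq sequence are in none of these groups.

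The miRNAs outside the family whose log2 CPM over the 6 Ago2 libraries was most like the mean of the 8 guides were miR-302d-3p (Pearson r = 0.995), miR-293-3p (0.993), miR-152-3p (0.98), miR-34a-5p (0.98) and miR-341-3p (0.98). miR-302d-3p, of a stem cell cluster, was at 747 CPM in K566A, 127 in Q548A, 108 in R792A_C793A, 101 in WT, 71.6 in PGKTP_AAAAA and 59.1 in GKT_GKGT. These values describe 6 libraries and rest largely on K566A, which is high for all 5. Without K566A, a setting chosen after seeing the data, over 5 libraries, 1 of these 5 stayed among the first 5, miR-302d-3p (0.98), beside miR-151-5p, miR-140-3p, miR-296-5p and miR-669a-5p. Within the family, each guide's r with the mean of the other 7 was between 0.84 and 0.99 over the 6 libraries except for let-7e-5p (0.57); without K566A it was 0.97 for let-7i-5p, 0.89 for miR-98-5p, 0.70 for let-7a-5p, 0.62 for let-7g-5p, 0.48 for let-7f-5p, 0.14 for let-7b-5p, 0.095 for let-7c-5p and -0.83 for let-7e-5p.

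The empty control held 87 counts of the 8 guides in 33461, or 2600 CPM (exact 95% interval 2083 to 3206), a larger part than in any Ago2 library. It had 25 counts of let-7a-5p (747 CPM), 20 of let-7b-5p (598 CPM), 15 of let-7c-5p (448 CPM), 11 of let-7f-5p (329 CPM), 7 of let-7i-5p (209 CPM), 5 of let-7g-5p (149 CPM), 3 of let-7e-5p (89.7 CPM) and 1 of miR-98-5p (29.9 CPM). No 2 neighbours in this order differed beyond counting error. A count of 0 would allow up to 89.7 CPM in this library, and 82 of the 337 miRNAs were at 0 in it.

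Against WT, 4 of the 8 guides were called higher in empty, while 2.08% of the 337 miRNAs (7 of them) were. let-7b-5p was 137 times its WT part of the library (82.6 to 214), let-7c-5p 9.64 times (5.39 to 15.9), let-7a-5p 7.82 times (5.06 to 11.6) and let-7f-5p 4.24 times (2.12 to 7.59). The other 3 of these 7, named after their values were seen, were miR-203-3p (58.1 times, 37.8 to 85.6), miR-27b-3p (3.11 times, 2.34 to 4.06) and miR-21-5p (5.44 times, 2.81 to 9.51). The intervals of let-7i-5p (1.48 to 7.61), let-7g-5p (0.57 to 4.10), let-7e-5p (0.27 to 3.79) and miR-98-5p (0.18 to 40.9) did not lie past 2.

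let-7b-5p exceeded each Ago2 library in the same way, from 15.2 times K566A (9.19 to 23.6) to 218 times GKT_GKGT (129 to 350). It made up 23.0% of the guide counts in empty (14.6 to 33.2), against 0.784% to 2.18% in the Ago2 libraries. In counts, however, empty held 20 of let-7b-5p where the Ago2 libraries held 136 to 588. Against K566A let-7b-5p was the 1 guide called higher in empty (10.1% of the 337 were), against Q548A 3 guides were (1.48%), against R792A_C793A 4 (1.78%), and against GKT_GKGT and PGKTP_AAAAA 5 each (6.53% and 10.4%). These comparisons share the empty library, and how much of such background the Ago2 libraries hold was not tested.

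**Figure D5:**
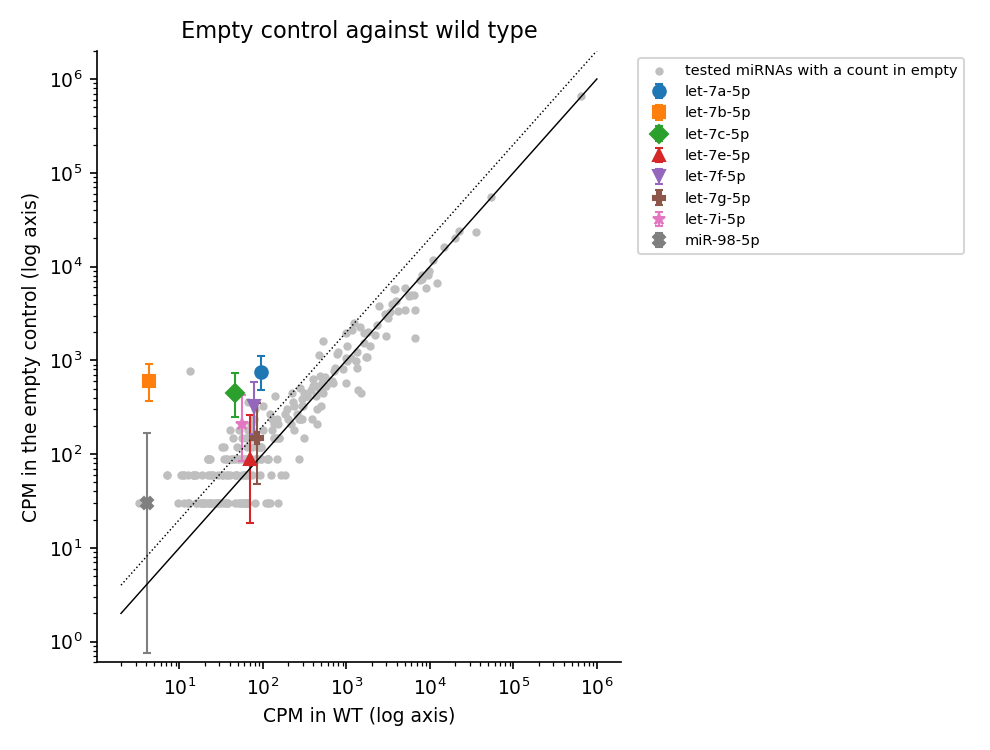
CPM in empty against CPM in WT (both log axes) for the 8 guides, with exact Poisson 95% intervals in empty, and in grey for other miRNAs past the level filter with a count in empty; lines mark equal levels and 2-fold. let-7b-5p (598 against 4.38 CPM), let-7a-5p and let-7c-5p stand clear of the 2-fold line, and let-7e-5p (89.7 against 69.2 CPM) lies between the lines.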

How the data were processed

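Ago2-bound small RNAs of 7 libraries were sequenced on an Illumina HiSeq with the NEBNext small RNA kit, per the labels' protocols. The deposited table holds raw counts per mature miRNA locus (1078 rows, not normalized). CASAVA 1.8.2, TopHat2 2.0.9 and build mm9 are named, per the submitters' processing notes; which program counted the reads, with which annotation, and how it treated reads that fit several places was not given in the sources used here. Each name was counted once, by its highest locus, and 9 names whose counts equalled another's (within 1% or 3 counts) were merged with it, leaving 950. CPM used the total as library size. Ratios carry exact conditional 95% intervals, shares Clopper-Pearson intervals, and changes of a ratio Woolf intervals (scipy 1.17.1); TMM factors came from edgeR 4.0.16. The calling rule was tested on simulated data with counting error only, which hold no further variation between libraries. Correlations used log2 CPM after adding 0.5 counts. Named were all 8 guides, let-7d-5p, cluster partners, the 5 most alike miRNAs and abundant members of the marker lists. Members and lists were chosen with earlier results of these data known.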

Additional observations from a re-analysis of the deposited data

How the results depend on the processing

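No paired analysis was possible because each group has 1 library. Other library sizes moved each log2 ratio to WT by a constant: median-of-ratios by -0.84 in K566A, 0.62 in PGKTP_AAAAA, -0.36 in R792A_C793A, 0.18 in GKT_GKGT and -0.10 in Q548A. The guides' median in K566A (2.27) became 1.43 with median-of-ratios, 1.30 with TMM and 1.15 without miR-292. In R792A_C793A (0.03) it turned to -0.33 with median-of-ratios, -0.33 with TMM and -0.20 without miR-292, and 1 guide was called lower with each (12.8%, 12.8% and 10.7% of the 337 were). In PGKTP_AAAAA (-0.39) it turned to 0.24 with median-of-ratios, where 1 guide was called higher and 0 lower (16.3% and 16.9% of the 337), and to 0.042 with TMM, where 0 were called lower (21.7%). With a limit of 1.5-fold, 3 guides were called lower in GKT_GKGT (27.3% of the 337 were), 3 in PGKTP_AAAAA (46%), 1 in R792A_C793A (14.5%) and 1 in Q548A (13.1%). Calls of higher guides in K566A (6 of the 7 past the level filter) ran from 4 to 7 over all alternatives. Of the 337, 25.2% were called higher there without miR-292, 29.7% with TMM, 32.9% with median-of-ratios and 54.9% at 1.5-fold. let-7b-5p is among the guides counted and passed the filter only through K566A. Summing the loci doubles let-7a-5p, let-7c-5p and let-7f-5p, which moved the change in share of let-7e-5p from 8.25 to 5.28 points in GKT_GKGT, from -5.93 to -4.19 in R792A_C793A, from -6.43 to -4.36 in Q548A and from -8.15 to -5.69 in K566A, and that of let-7g-5p from -10.1 to -6.98 in PGKTP_AAAAA. Leaving out the level filter moved no count by over 1.5 times. Calls between mutants were made with the total as library size only. Depth limits the empty control, where 0 counts allow up to 89.7 CPM.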
